A study of Mus musculus with 53 samples.

Results

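SOX2 binding was compared between mouse embryonic stem cells (ESCs) kept in 2iLIF and in NACL, using the 4 SOX2 CUT&RUN peak lists of these media among the 10 SOX2 libraries and 53 samples of the series. In CUT&RUN an antibody directs micrococcal nuclease to a chromatin protein, and the released DNA is sequenced. The cells were SGGC ESCs of the E14JU line, which carry SOX2 fused to GFP and GATA6 fused to mCherry at the endogenous genes. All groups used here share these reporter alleles and the resistance cassettes kept in the clones. Each medium was represented by clone B9 and clone B12, each of which is 1 clone. 2iLIF contains a MEK inhibitor, the GSK3 inhibitor CHIR99021 and the cytokine LIF, whereas NACL contains Activin A, CHIR99021 and LIF, and cells were held in their medium for at least 4 passages. The source name of the NACL B12 library names IgG, and its antibody and medium were taken from its listed antibody and its title.

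Peaks of the 4 libraries on chromosomes 1 to 19, X and Y were merged wherever they shared at least 1 bp, which gave 32736 regions of 39917 held by any SOX2 library of the series. A region with a peak in both 2iLIF libraries and in no NACL library was called 2iLIF-only, the converse NACL-only, and a region with a peak in all 4 libraries shared. There were 158 2iLIF-only, 5198 NACL-only and 6553 shared regions.

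SOX2 is an HMG-box transcription factor that pairs with OCT4 (encoded by Pou5f1) on adjacent DNA sites and maintains naive pluripotency. TCF/LEF factors, which act at the end of the Wnt pathway, also bind DNA through an HMG box. Stabilised beta-catenin, as produced by GSK3 inhibition, joins TCF/LEF factors at their targets, and Sp5 is a well known direct Wnt target.

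The following stretches of 100 bases are shown because they lie in regions whose SOX2 signal differed between media, or in a strong shared region, and because they show the short strings counted below. They are the plus strand of GRCm38 from RefSeq. Capitals mark matches, on either strand, to the SOX string CATTGT, the OCT-SOX composite TTGTNATGC, the OCT string ATGCAAAT or the TCF string CTTTGAT. Each stretch was centred on the composite where the region held it, and otherwise on the nearest of these strings to the maximum. Only in regions higher in 2iLIF was a TCF string preferred to both, so the stretches do not compare TCF strings between groups. The Ankrd6 region also held a TCF string outside its stretch. The groups follow in this order, namely higher in 2iLIF (chr10:19372292-19372391 near Olig3, chr16:57473645-57473744 in Filip1l, chr2:70340404-70340503 upstream of Sp5 and chr1:136980551-136980650 upstream of Nr5a2), higher in NACL (chr11:117975550-117975649 near Socs3, chr4:32941280-32941379 in Ankrd6 and chr1:137174016-137174115 upstream of Nr5a2) and shared (chr12:4358767-4358866 in Ncoa1).
Olig3: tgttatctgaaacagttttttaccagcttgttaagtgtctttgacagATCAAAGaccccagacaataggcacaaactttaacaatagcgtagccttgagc
Filip1l: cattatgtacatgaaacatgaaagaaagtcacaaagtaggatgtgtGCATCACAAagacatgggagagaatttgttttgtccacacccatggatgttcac
Sp5: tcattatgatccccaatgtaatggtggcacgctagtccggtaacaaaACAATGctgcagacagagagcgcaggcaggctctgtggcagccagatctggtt
Nr5a2, higher in 2iLIF: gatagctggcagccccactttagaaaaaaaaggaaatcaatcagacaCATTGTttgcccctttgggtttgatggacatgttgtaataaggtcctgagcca
Socs3: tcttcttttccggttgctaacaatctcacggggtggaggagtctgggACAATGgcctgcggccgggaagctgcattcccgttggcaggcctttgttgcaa
Ankrd6: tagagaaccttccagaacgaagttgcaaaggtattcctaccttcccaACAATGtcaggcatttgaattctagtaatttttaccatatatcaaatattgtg
Nr5a2, higher in NACL: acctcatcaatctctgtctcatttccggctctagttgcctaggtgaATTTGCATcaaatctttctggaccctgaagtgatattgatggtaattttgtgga
Ncoa1: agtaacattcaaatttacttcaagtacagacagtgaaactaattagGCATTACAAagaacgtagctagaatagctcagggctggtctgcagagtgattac

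The peak lists differed in length. The 2iLIF B9 library held 13177 peaks and 2iLIF B12 held 8203, against 29623 in NACL B9 and 17111 in NACL B12. With the same number of strongest peaks taken from each, 76.5% of 2iLIF B9 peaks overlapped a 2iLIF B12 peak and 74.7% of NACL B9 peaks a NACL B12 peak, against 64.6 to 70.2% between libraries of different media. Across the shared regions the median of the highest coverage was 33 and 19 in 2iLIF B9 and B12 and 49 and 17 in NACL B9 and B12, so heights were not on 1 scale. Pou5f1, Nanog, Sox2, Sall4, Esrrb, Klf4 and Fgf4, known SOX2 target loci in ESCs, were each the nearest gene of at least 1 shared region, whereas Utf1 was not. Among loci of other lineages, Gata6, Gata4, Cdx2 and Elf5 had no shared region and Sox17 no region, while Pdgfra had 2 shared regions. Clone B12 had fewer peaks on chromosome 14 in both media, at 2.88% of peaks against 4.48% in B9 for 2iLIF and 2.76% against 4.42% for NACL. At the same number of peaks, B9 exceeded B12 on this chromosome 1.56 times in 2iLIF and 1.58 times in NACL, against 0.918 to 1.10 times on the other 18 autosomes. Leaving out chromosome 14 left 155 2iLIF-only, 5082 NACL-only and 6371 shared regions.

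The 3 classes held 0.483% (2iLIF-only), 15.9% (NACL-only) and 20.02% (shared) of the merged regions. Because list length sets how many regions a library can show, the comparison was repeated with the 8203 strongest peaks of each library by highest signal, the number in the shortest list. Of 13101 regions, 983 (7.50%) were then 2iLIF-only, 937 (7.15%) NACL-only and 4324 (33.0%) shared. NACL-only regions thus outnumbered 2iLIF-only regions in the full lists, and 2iLIF-only regions were slightly more numerous at equal number. Of the 983 equal-number 2iLIF-only regions, 498 had a peak in both full NACL lists, 410 in 1 of them and 75 in neither. Of the 937 NACL-only regions, 347 had a peak in 1 full 2iLIF list and 590 in neither. The full list of 2iLIF B12 is the equal-number list, so no NACL-only region could have a peak in both.

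**Figure D1:**
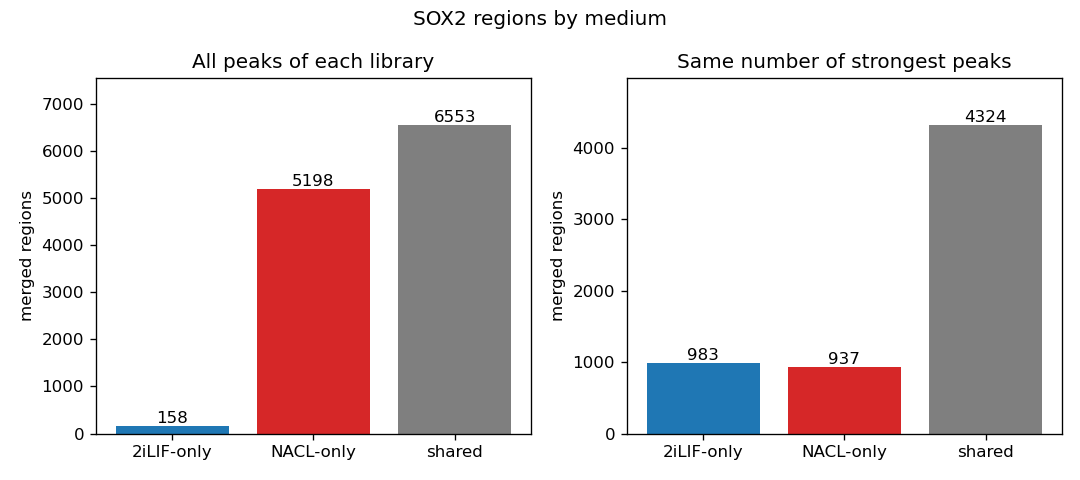
Number of merged SOX2 regions (vertical axis, starting at 0) in each class, with all peaks on the left and the 8203 strongest peaks of each library on the right. NACL-only regions outnumber 2iLIF-only regions 5198 to 158 with all peaks, while the counts are 937 and 983 at equal number.

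The class counts depended on single libraries. Without 2iLIF B12 there were 1074 2iLIF-only regions, without NACL B9 917, and without 2iLIF B9 244. Without NACL B12 there were 17192 NACL-only regions. These leave 1 library to define a medium.

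SOX2 peaks near gene starts made up a larger share of both NACL lists. Of all peaks, 4.33% in 2iLIF B9, 4.34% in 2iLIF B12, 7.57% in NACL B9 and 5.80% in NACL B12 had their maximum within 1 kb of a transcription start site (TSS) of a protein-coding gene. Both NACL libraries lay above both 2iLIF libraries (6.68% ± 1.25 SD against 4.34% ± 0.00464 SD, n = 2 each), but the exact permutation test, two-sided, gave p = 0.333, the smallest value that 2 against 2 libraries allow. At equal number the shares were 3.97%, 4.34%, 5.88% and 4.86% (exact permutation p = 0.333). Within clones the difference was 3.24 percentage points for B9 and 1.46 for B12. Most binding was distal in both media, with a median distance to the nearest TSS between 30942 and 33798 bp.

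Across the classes, 1.899% of 2iLIF-only regions lay within 1 kb of a TSS (3 of 158, 95% Clopper-Pearson interval 0.393 to 5.45%), 7.56% of NACL-only regions (interval 6.86 to 8.31%) and 4.58% of shared regions (interval 4.08 to 5.11%). At equal number these were 1.93%, 6.40% and 4.53%. The median TSS distance was 28646 bp, 32834 bp and 33927 bp in the full lists. Intervals cover counting error only, and regions are not replicates, so no test was made between classes.

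The 10 2iLIF-only regions of highest rank by signal had no NACL peak by definition, and the coverage given for them cannot be set against another library's. The first lay in an intron of Cacna1a (chr8:84459836-84460155), which encodes a calcium channel subunit, with a highest coverage of 45 in 2iLIF B9 and 28 in B12. Others lay near Nuak1 (41 and 21), in an intron of Arid1b, which encodes a chromatin remodelling subunit (32 and 24), and upstream of Elk3, an ETS factor gene (40 and 16). Their mean percentile within the 2iLIF libraries was 62.4 to 81.6, and that of the 10 leading NACL-only regions within the NACL libraries 89.9 to 94.3, the latter taken from a far larger class. The leading NACL-only regions, all without a 2iLIF peak, lay near Ccdc172 (80 in NACL B9 and 32 in B12) and Utrn (62 and 42). Gata3, which encodes a trophoblast and lymphoid factor, and Sox11, a neural SOX gene, were also among them, at 45 and 35 and at 57 and 26. Leading shared regions lay in Sox13 (255, 153, 223 and 145 in 2iLIF B9, 2iLIF B12, NACL B9 and NACL B12), near Bcas2 (196, 136, 213 and 140) and in Ncoa1, a nuclear receptor coactivator gene (149, 109, 185 and 122). At equal number the leading 2iLIF-only regions lay near Apopt1 (84 and 36), in Syk, a tyrosine kinase gene (67 and 40), and upstream of Aldh1a3, a retinoic acid synthesis gene (79 and 36), while Ccdc172 and Utrn again led the NACL-only regions. The Apopt1 region, like those of Olig3, Rab11fip5 and Acsl3 in the same class, had a peak in both full NACL lists and is therefore also one of the shared regions tested below.

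Among the 21853 protein-coding genes, 156 (0.714%) were nearest to a 2iLIF-only region and 3569 (16.3%) to a NACL-only region in the full lists, and 899 (4.11%) and 851 (3.89%) at equal number. Genes with many SOX2 regions are more likely to hold one of any class, so shares of regions are given as well. Of 20 core and naive pluripotency genes, 15 were nearest to a NACL-only and 0 to a 2iLIF-only region in the full lists, and at equal number 6 and 4. By region, 30 of the 189 regions of this list (15.9%) were NACL-only, the same share as over all regions. Full-list NACL-only regions of this list included 1 at the Sall4 start (74 bp upstream, coverage 46 in NACL B9 and 10 in NACL B12), 1 at the Lin28a start (37 bp upstream, 38 and 10) and 1 close to the Pou5f1 start (844 bp upstream, 17 and 7). Sall4 and Pou5f1 encode core pluripotency factors, and Lin28a a repressor of let-7. Others lay near Sox2 (5 regions), Prdm14 (4) and Tbx3 (4). The 4 genes with a 2iLIF-only region at equal number were Klf5, Nr5a2, Sox2 and Tbx3, each an activator of naive pluripotency, and the 6 with a NACL-only region were Klf5, Nr5a2, Prdm14, Sall4, Tet1 and Utf1. Klf5 and Nr5a2 thus had regions of both kinds. One of the 2iLIF-only Nr5a2 regions (57 and 30) is a shared region of the full lists and returns in the signal test below. By region, 5 of the 90 regions of this list at equal number (5.56%) were 2iLIF-only and 6 (6.67%) NACL-only. Of 16 Wnt pathway genes, 2 were nearest to a 2iLIF-only region in the full lists, namely Sp5 (chr2:70437795-70438228, 36945 bp upstream, coverage 32 and 12) and Nkd1, a Wnt antagonist (19 and 8), and 9 to a NACL-only region. Sp5 was among the 9, with a NACL-only region 181944 bp upstream (22 and 11). At equal number the counts were 2 and 4, the 2 being again Sp5 and Nkd1 and the 4 being Ctnnb1, Lef1, Tcf7l1 and Tcf7l2. Sp5 thereby held 2 of the 3 equal-number 2iLIF-only regions of the Wnt list. By region, 2 of 87 (2.299%) were 2iLIF-only in the full lists, and at equal number 3 of 45 (6.67%), below the share over all regions, and 5 (11.1%) NACL-only. Of 16 Nodal and Activin genes, 6 had a NACL-only region in the full lists, among them Lefty1 (28 and 8), Lefty2 (18 and 8) and Smad3 (23 and 8), and 0 had a 2iLIF-only region. Lefty1 and Lefty2 encode Nodal antagonists and Smad3 a signal transducer. By region, 7 of 58 (12.1%) were NACL-only, below the share over all regions. At equal number 1, Smad7, had a NACL-only region and 0 had a 2iLIF-only region. By region these were 3.23% and 0% of 31, below the shares over all regions. For the other lists, the genes with a NACL-only region in the full lists were 3 of 12 (formative epiblast), 9 of 19 (FGF and ERK), 4 of 9 (LIF), 2 of 8 (BMP), 8 of 18 (primitive endoderm), 4 of 8 (trophoblast) and 5 of 8 (neural), and only Pdgfra of the primitive endoderm list had a 2iLIF-only region. By region the NACL-only shares of these lists were 15.2% of 79, 16% of 150, 17.6% of 34, 16.7% of 18, 16.4% of 73, 17.2% of 29 and 25% of 32, and that of the Wnt list was 14.9% of 87, so all but the neural list (8 regions) lay within 4 percentage points of the share over all regions. The genes with a 2iLIF-only and a NACL-only region at equal number were 1 and 2 of 12 formative epiblast genes, 1 and 2 of 19 FGF and ERK genes, 0 and 2 of 9 LIF genes, 0 and 1 of 8 BMP genes, 3 and 2 of 18 primitive endoderm genes, 1 and 2 of 8 trophoblast genes and 0 and 1 of 8 neural genes. By region these were 3.23% and 6.45% of 31, 1.45% and 4.35% of 69, 0% and 11.8% of 17, 0% and 16.7% of 6, 10% and 6.67% of 30, 7.14% and 14.3% of 14 and 0% and 8.33% of 12, each resting on at most 3 regions, against 7.50% and 7.15% of all regions.

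Shared regions held a peak in every library, so their signal could be compared between media as a relative level. The highest coverage of each region was put on the log2 scale, quantile-normalised across the 6553 regions, and fitted with limma. At a Benjamini-Hochberg adjusted p under 0.05, 93 regions (1.42%) were higher in 2iLIF and 56 (0.855%) were higher in NACL. With the clone as a block, as the same 2 clones were used in both media, 539 (8.23%) and 425 (6.49%) passed. All 149 regions called without the block were also called with it. Their direction could not differ, since each clone was used once in each medium and the estimated difference is therefore the same in both fits. The blocked fit estimates a further term from the same libraries, so its calls rest more on the spread borrowed from other regions. The fold between media ranged from 1.93 to 4.62 for those higher in 2iLIF and from 1.91 to 4.05 for those higher in NACL without the block, and started at 1.51 and 1.53 with it, where the medians were 2.06 in both directions. Without the trend and robust options, a setting not run with the block, limma called 0 regions. At unadjusted p under 0.05 there were 553 higher in NACL and 676 higher in 2iLIF. Leaving out any 1 library also gave 0 calls, with 328 to 368 and 270 to 547 regions at unadjusted p under 0.05.

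The region of lowest p was in an intron of Filip1l (132 in 2iLIF B9, 80 in 2iLIF B12, 62 in NACL B9 and 18 in NACL B12), 3.46-fold higher in 2iLIF (log2 difference NACL minus 2iLIF -1.79 ± 0.249 SE, limma adjusted p = 0.0223). The region upstream of Acsl3, a fatty acid activating enzyme gene, had coverage 57 and 35 in 2iLIF against 13 and 7 in NACL (log2 -2.21 ± 0.339 SE, limma adjusted p = 0.0223). The region downstream of Olig3, a neural bHLH factor gene, had 61 and 40 against 16 and 8. These coverages are on unlike scales, and only the normalised levels were compared.

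Other leading regions higher in 2iLIF lay near or in Kif28, Nav2, Rab11fip5, R3hdm4, Apopt1 and Nr5a2, with folds from 3.85 to 4.61. In the other direction, a region upstream of Cyp2j13 had 28 and 16 in 2iLIF against 102 and 56 in NACL (log2 1.65 ± 0.290 SE, limma adjusted p = 0.0223). A region in an intron of Ankrd6 had 36 and 25 against 127 and 64. The 9 leading regions higher in NACL given here, the first of which lay near Gm4951, had folds from 2.65 to 3.92. Each of these 9 overlapped a peak in all 3 SOX2 libraries of KOSR SOX2+ cells, described below, while the 9 leading regions higher in 2iLIF given here overlapped a peak in 0 to 3. Of all shared regions, 88.0%, 86.8% and 77.9% overlapped a peak in these 3 libraries, so such overlap was common among shared regions.

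**Figure D2:**
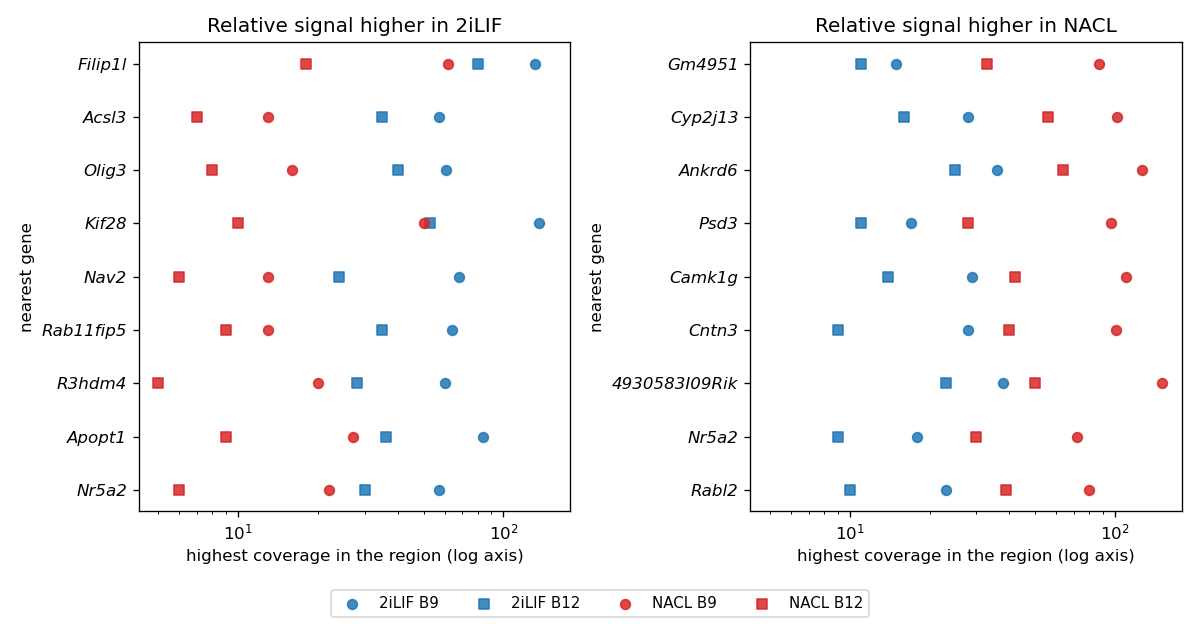
Highest coverage in each of the 4 SOX2 libraries (horizontal log axis, each library on its own scale) at 9 of the 10 shared regions of lowest p in each direction, by nearest gene. Blue points are 2iLIF and red points NACL, with circles for clone B9 and squares for B12. The values are 61 and 40 (2iLIF) and 16 and 8 (NACL) at Olig3, and 28 and 16 (2iLIF) and 102 and 56 (NACL) at Cyp2j13, and positions along the axis cannot be compared between libraries without the normalisation used in the test.

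Of the 134 list genes, 72 were nearest to a shared region and 5 of these (6.94%) to one that passed without the clone block, against 146 (3.62%) of the 4035 genes nearest to any shared region. The lists held 7 of their 185 shared regions (3.78%) past the threshold, against 2.274% of all 6553, and with the clone block 32 (17.3%) against 14.7%. Nr5a2, an orphan nuclear receptor gene of naive pluripotency, had one region 20284 bp upstream that was higher in 2iLIF (57 and 30 against 22 and 6, 3.92-fold) and another 213764 bp upstream that was higher in NACL (18 and 9 against 72 and 30, 3.36-fold). Sp5 had 2 regions higher in 2iLIF, at 134568 bp upstream (120 and 66 against 84 and 30, 1.99-fold, limma adjusted p = 0.0414) and 10031 bp downstream (119 and 59 against 75 and 10, 3.31-fold, limma adjusted p = 0.0370). Regions of Socs3, a LIF and STAT3 target (12 and 10 against 58 and 24), the Wnt receptor gene Fzd7 (20 and 9 against 66 and 36) and the primitive endoderm receptor gene Pdgfra (18 and 10 against 51 and 45) were higher in NACL. Without the block, 2 of 18 shared regions of the Wnt list were higher in 2iLIF and 1 was higher in NACL, and with it 3 and 2. In the core and naive list 1 of 50 passed in each direction, both of Nr5a2, and with the block 4 were higher in 2iLIF and 3 in NACL. The FGF and ERK list had 0 of 36 without the block, and 1 higher in 2iLIF and 4 higher in NACL with it. The Nodal and Activin list likewise had 0 of 19 without the block, and 3 and 2 with it. Of 16 primitive endoderm regions 1 passed, higher in NACL, and with the block 1 was higher in 2iLIF and 2 in NACL. With the block, those higher in 2iLIF and in NACL were 1 and 2 of 19 formative epiblast regions and 0 and 2 of 9 LIF and STAT3 regions. They were 1 and 1 of 9 trophoblast regions, and 0 in the BMP and neural lists. The median log2 difference NACL minus 2iLIF over all 6553 regions was 0.03. It was lowest in the trophoblast list at -0.24 (9 regions), followed by Wnt at -0.13, Nodal and Activin at -0.05, core and naive at 0.01, formative epiblast at 0.04 and BMP at 0.07 (2 regions). The neural list had a median of 0.17 (7 regions), LIF and STAT3 0.19 (9 regions), FGF and ERK 0.19 and primitive endoderm 0.33.

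Short strings known from the binding sites of single factors were counted on both strands around the maxima. The strings not yet spelled out were TCAAGGTCA for ESRRB, CCACACCC for KLF, TGANTCA for AP-1, CATTCC for TEAD, CCGGAAGT for ETS, AATCCACA for FOXH1, GTCTAGAC for SMAD, AGATAA for GATA factors and CCACNAGGG for CTCF. The composite can overlap the SOX and OCT strings. In the 500 bp around the maxima of the 8203 strongest peaks, 13.7% held the TCF string in 2iLIF B9, 12.3% in 2iLIF B12, 10.5% in NACL B9 and 10.3% in NACL B12 (exact permutation p = 0.333, adjusted over 13 strings 0.433), against 9.89% of 17635 windows spaced evenly over the genome. Both 2iLIF libraries were thus above both NACL libraries, and the mean difference NACL minus 2iLIF was -2.62 percentage points, with -2.76 for SOX. Leaving out 1 library kept the TCF difference between -3.30 and -1.94, while the SOX difference was -1.17 without NACL B9 and -4.34 without NACL B12. Of the 13 strings, 10 had no overlap between media, each at the smallest exact permutation p that 2 against 2 libraries allow. Of these, 6 were higher in 2iLIF, including TCF, SOX (47.0% and 48.7% against 43.5% and 46.7%), ESRRB (4.55% and 4.23% against 3.80% and 3.72%) and GATA (27.9% and 27.5% against 25.7% and 26.6%). In genome windows the shares were 28.2% for SOX, 1.20% for ESRRB and 30.3% for GATA, so GATA lay below the genome share in all 4 libraries. The other 4 were higher in NACL, including AP-1 (15.4% and 15.8% against 16.2% and 17.3%, with 14.5% in genome windows), whose mean difference was 0.603 points without NACL B12. For the OCT-SOX composite (10.5% and 11.03% against 11.4% and 11.7%) and CTCF (4.33% and 4.83% against 5.11% and 5.63%), the mean difference turned with all peaks.

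Among classes at equal number, 22.4% of 2iLIF-only regions held the TCF string (220 of 983, interval 19.8 to 25.1%), against 8.96% of NACL-only (interval 7.21 to 10.98%) and 10.9% of shared regions (interval 9.98 to 11.9%). Of all 13101 regions 12.1% held it. With all peaks the share in 2iLIF-only regions was 25.9% (41 of 158). Among shared regions higher in 2iLIF by limma it was 23.7% (22 of 93), and among those higher in NACL 7.14% (4 of 56), against 11.6% of all shared regions. With the clone block these were 20.04% of 539 and 4.47% of 425. These are not separate evidence from the equal-number classes, since 498 of the 983 2iLIF-only regions at equal number belong to the shared regions of the full lists. The OCT-SOX composite was in 14.3% of shared, 8.32% of NACL-only and 4.78% of 2iLIF-only regions, against 1.34% of genome windows. The CTCF string was in 6.61%, 4.27% and 1.22%, against 1.33% of genome windows. Among shared regions called with the clone block, the CTCF string was in 16.9% of those higher in NACL and 1.48% of those higher in 2iLIF, and the composite in 18.6% and 6.68%. Without the block these were 5.36% (3 of 56) and 4.30% (4 of 93) for CTCF and 16.1% and 6.45% for the composite, and over all shared regions 5.65% and 12.3%. The unblocked sets are small, with intervals of 1.12 to 14.9% and 1.184 to 10.6% for CTCF. The SOX string was in 52.1% of 2iLIF-only, 41.5% of NACL-only and 47.6% of shared regions. Mean GC content was 43.3% in 2iLIF-only and 46.1% in NACL-only regions, whose part in these shares was not tested.

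**Figure D3:**
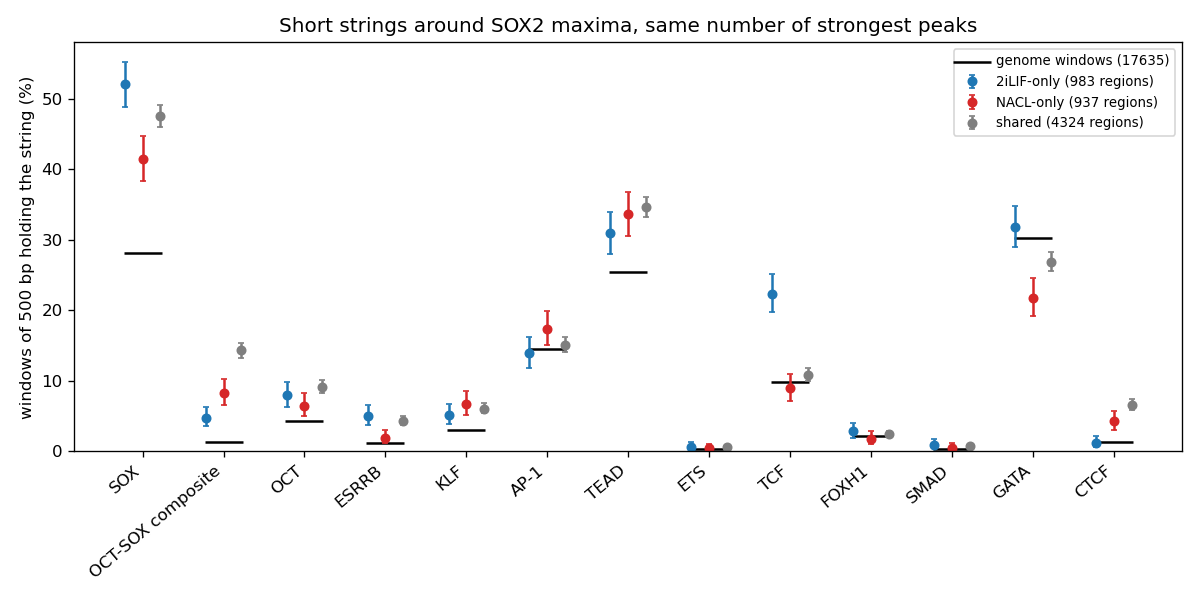
Share of 500 bp windows around the maxima that hold each string (vertical axis, percent) for the 3 classes at equal number, with 95% Clopper-Pearson intervals, and for genome windows (black lines). The TCF string is in 22.4% of 2iLIF-only regions and 8.96% of NACL-only regions, and the OCT-SOX composite is highest in shared regions at 14.3%.

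Histone marks were measured in separate libraries of both media. H3K27ac marks active enhancers and promoters, and H3K4me1 marks enhancers. At 2iLIF-only regions H3K27ac peaks were found in 83.5% (2iLIF B9), 86.1% (2iLIF B12), 63.9% (NACL B9) and 62.7% (NACL B12). At NACL-only regions the shares were 66.5%, 73.1%, 76.95% and 81.4%. The difference NACL-only minus 2iLIF-only was negative in both 2iLIF libraries (-17.0 and -12.9 percentage points) and positive in both NACL libraries (13.03 and 18.8), a change of 30.9 points between media (exact permutation p = 0.333, the smallest that 2 against 2 libraries allow). Without the NACL B9 SOX2 library the change was 19.9 points. Shared regions were at 89.7 to 91.7% in all 4 libraries. Over all merged regions the shares were 74.7% and 77.8% in 2iLIF and 77.1% and 77.5% in NACL, so in NACL B9 the NACL-only share was close to that of all regions.

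H3K4me1 showed the same order. The shares at 2iLIF-only and NACL-only regions were 41.8% and 36.9% in 2iLIF B9, 67.7% and 58.2% in 2iLIF B12, 22.2% and 33.3% in NACL B9 and 26.6% and 33.4% in NACL B12. Shared regions were at 55.7%, 78.5%, 41.2% and 43.1%, and all merged regions at 41.01%, 61.5%, 32.7% and 32.2%. The 2iLIF-only share in 2iLIF B9 and the NACL-only shares in NACL thus lay near those of all regions. The change of the difference between media was 16.2 points (exact permutation p = 0.333). At equal number the changes were 21.3 points for H3K27ac and 16.1 for H3K4me1. The histone peak lists ranged from 24700 to 401853 peaks, the longest being H3K27ac in 2iLIF B12.

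**Figure D4:**
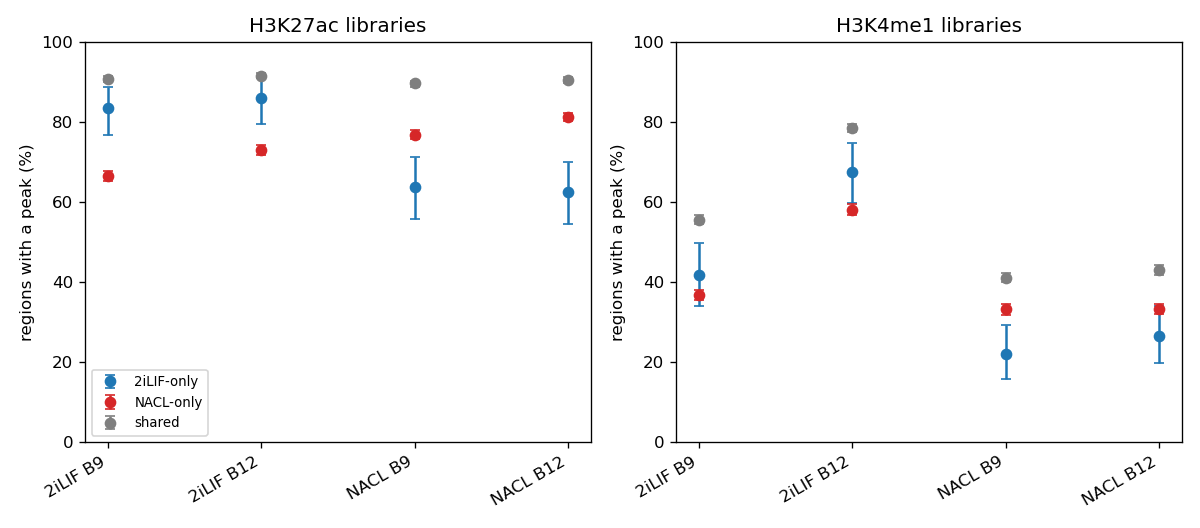
Share of regions of each class with an H3K27ac (left) or H3K4me1 (right) peak in each histone library (vertical axis, percent), with 95% Clopper-Pearson intervals. In the 2iLIF libraries 2iLIF-only regions are above NACL-only regions, and in the NACL libraries they are below.

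The classes were also set against SOX2 and GATA6 libraries of KOSR culture, which did not enter their definition. In SOX2+ cells NACL-only regions held a peak more often than 2iLIF-only regions, and in DP cells the order was the reverse with all peaks. KOSR is a serum replacement medium in which cells were sorted as SOX2+ or as double positive (DP) for SOX2 and GATA6, and all of these libraries are from clone B12. In SOX2+ cells 53.6% (A), 57.2% (A1) and 28.5% (B) of NACL-only regions and 15.2%, 21.5% and 11.4% of 2iLIF-only regions held a SOX2 peak, against 88.0%, 86.8% and 77.9% of shared regions and 42.2%, 46.3% and 28.7% of all merged regions. In library B the NACL-only share was that of all regions, and the 2iLIF-only share was below it. The difference was 30.4 percentage points on average ± 11.6 SD (higher in 3 of 3 libraries, exact sign-flip p = 0.25, the smallest that 3 libraries allow). At equal number it was 33.97 points. Without NACL B12, when NACL B9 alone defined the medium, it was 2.34 points, and without NACL B9 it was 11.95 points. The classes also differed in strength, the median percentile of highest signal being 35.1 and 19.02 for 2iLIF-only regions in 2iLIF B9 and B12 and 54.5 and 32.7 for NACL-only regions in NACL B9 and B12, whose part in this difference was not tested. In DP cells SOX2 peaks lay in 9.49%, 9.49% and 2.53% of 2iLIF-only, 6.52%, 7.91% and 0.616% of NACL-only and 40.5%, 43.4% and 18.2% of shared regions, against 11.7%, 12.9% and 4.05% of all merged regions. This difference of -2.16 points turned to 0.510 at equal number. GATA6 peaks of DP cells lay in 1.27 to 5.70% of 2iLIF-only, 1.19 to 5.14% of NACL-only and 2.17 to 11.3% of shared regions, against 1.05 to 5.43% of all merged regions. GATA6 peaks of nEnd (naive endoderm) cells lay in 8.23% and 10.1% of 2iLIF-only, 9.31% and 14.2% of NACL-only and 13.5% and 19.6% of shared regions, against 9.26% and 13.6% of all merged regions.

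At the shared regions the same KOSR SOX2+ libraries held a peak in 72.0%, 69.9% and 61.3% of the 93 regions higher in 2iLIF and in 98.2%, 96.4% and 94.6% of the 56 higher in NACL. Over all shared regions the shares were 88.0%, 86.8% and 77.9%. H3K27ac peaks of NACL cells covered 83.9% and 79.6% of the regions higher in 2iLIF and 92.9% and 94.6% of those higher in NACL, and those of 2iLIF cells 94.6% and 97.8% against 78.6% and 87.5%. H3K4me1 peaks of NACL cells (B9 and B12) covered 39.8% and 37.6% against 48.2% and 51.8%. Those of 2iLIF cells covered 59.1% and 82.8% against 57.1% and 73.2%, so the sets hardly differed in 2iLIF B9.

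**Figure D5:**
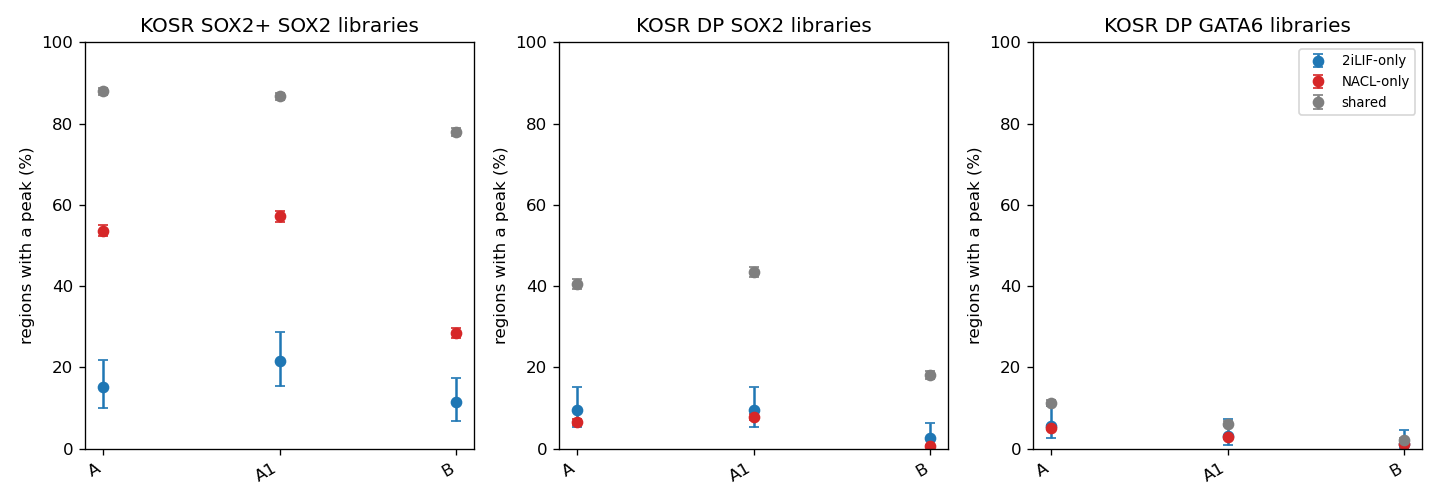
Share of regions of each class with a peak in SOX2 libraries of KOSR SOX2+ cells, SOX2 libraries of DP cells and GATA6 libraries of DP cells (vertical axis, percent; replicates A, A1 and B), with 95% Clopper-Pearson intervals. In SOX2+ cells NACL-only regions lie above 2iLIF-only regions in all 3 libraries, and in all 9 libraries shared regions lie highest.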

How the data were processed

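SOX2, histone and GATA6 CUT&RUN libraries were assigned to groups from their titles, source names and antibodies, and the members and lists here were chosen with earlier results of these data known. Per the submitters' processing notes and the study's methods, trimming by the authors used cutadapt 1.18 and alignment to GRCm38 (mm10) used Bowtie2 2.3.4.1, with Picard 2.9.1, SAMtools 1.9, bedtools 2.27.1 and deepTools 3.2.0 also named, and SEACR called each library's peaks over IgG. The deposited SOX2 and GATA6 lists are named for SEACR's stringent mode and the histone lists for its relaxed mode, while the methods state the reverse. The deposited signal is coverage on each library's own scale, so depth is unknown and signal was only ranked or compared as a relative level. Sequences and TSSs came from RefSeq GRCm38.p6 and GENCODE M21. Regions were named by rank of the mean within-library percentile of the highest signal (10 per class), or by lowest p (10 per direction, 1 of each of which is not reported here). Signal was tested with limma 3.58.1 in R 4.3.3 (trend, robust), checked on simulated data. Shares were compared with exact tests over libraries (scipy 1.17.1). Replicates are clones, so the clone numbers pair the samples, which deviate together (correlation of B9 minus B12 between media 0.313 over 6553 regions). P-values measure the spread between these libraries. Alternatives included equal peak numbers, other overlaps, windows and normalisations, the clone block and each library left out. IgG samples and the 2 libraries with conflicting population labels were not used here.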

Additional observations from a re-analysis of the deposited data

Results flagged for a closer look

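H3K27ac and H3K4me1 at 2iLIF-only and NACL-only regions stood out because both 2iLIF libraries moved one way and both NACL libraries the other. The difference NACL-only minus 2iLIF-only changed between media by 30.9 percentage points for H3K27ac and 16.2 for H3K4me1 with all peaks, and by 21.3 and 16.1 at equal number. The difference between media was tested by permuting libraries, which with 2 against 2 cannot go below p = 0.333 (exact), the value each gave.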

How the results depend on the processing

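Counts of regions changed with how peaks were chosen. 2iLIF-only regions numbered 983 at the same number of strongest peaks by highest signal, 1009 by total signal, 101 with the stronger 50% of peaks and 1157 when 1 library of a medium sufficed, and ranged from 192 to 1074 with a library left out. NACL-only regions numbered 937, 952, 2842 and 19122 under the same settings and 5548 to 17192 with a library left out. Shared regions numbered 4324 at equal number, 3338 with the stronger 50% and 12457 when 1 library sufficed. With the clone as a replicate block the signal test called 425 regions higher in NACL and 539 in 2iLIF. These were 330 and 556 with median centring and 705 and 817 with total signal, both added after seeing the data. The test without the block called 56 and 93, and 0 in each direction without the trend and robust options. That setting was not run with the block, and leaving out a library leaves 1 library in a medium. The TSS share differed by 1.21 and 1.10 points at equal number (by highest and total signal). The mean difference within clones was 2.35 points, which by arithmetic equals the difference between media and is no separate check. The H3K27ac change was 21.3 and 21.5 points at equal number, 23.98 when 1 library sufficed, 34.5 at equal histone peak number and 19.9 to 33.7 with a library left out, and the H3K4me1 change 24.4 with the stronger 50% of peaks. The KOSR SOX2+ difference was 14.1 when 1 library sufficed and 2.34 to 39.6 with a library left out. The KOSR DP SOX2 difference of -2.16 was 0.510 and 1.07 at equal number, 3.63 with the stronger 50% of peaks, -0.729 when 1 library sufficed and -5.55 to 2.87 with a library left out. The KOSR DP GATA6 difference of -0.336 was 0.380 and 0.184 at equal number, 2.35 with the stronger 50%, 0.687 with a 50% overlap, 0.747 with windows around the maximum, 0.0314 when 1 library sufficed and -1.76 to 1.12 with a library left out. The composite difference was -2.18 with all peaks and -1.99 with the stronger 50%, the CTCF difference -0.642 and -0.395, and the number of strings that did not overlap was 6 with the stronger 50%. Overlap and merging rules leave values per library as they are. Leaving out a library leaves fewer libraries to define a class, and the cause of the other changes was not tested. Depth is unknown, so an absent peak may be a weak one.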

Other observations

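SOX2 and GATA6 peak lists of KOSR culture, all from clone B12, held 1.65 to 2.87% of their peaks on chromosome 14. The H3K27ac and H3K4me1 lists of clone B12 in both media held 1.82 to 2.89% and the nEnd GATA6 list of B12 3.07%, whereas the SOX2, histone and nEnd GATA6 lists of clone B9 held 4.03 to 4.53%.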
